A study of Mus musculus with 8 samples.

Results

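The genes described here carry a cell from its entry into mitosis to the separation of the daughter cells. They were chosen by name: 48 genes for mitotic kinases and cyclins, the spindle checkpoint, the kinetochore, the chromosomal passenger complex, mitotic kinesins, the spindle midzone, condensin, anaphase and mitotic exit, and cytokinesis. All 48 were found among the 23293 mouse genes measured. Messenger RNA was sequenced in 8 libraries from the bone marrow of individual mice, 4 weeks after injection of PIpC, in 4 groups of 2 mice. Cells bearing c-Kit (Cd117), a receptor of blood stem and progenitor cells, had been enriched with magnetic beads against it. The values are FPKM, fragments scaled for transcript length and for the number of mapped fragments.

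The controls had 1 floxed Smc3 allele (Smc3 fl/+) and no Mx1-cre. The second group (Smc3 del/+) carried Mx1-cre and 1 deleted Smc3 allele. The third carried Mx1-cre and Flt3-ITD, a tandem duplication inside the Flt3 gene that leaves its receptor kinase switched on. The combined group carried Mx1-cre, Flt3-ITD and an Smc3 change that its genotype label gives as fl/del and its title as het. Mx1-cre is driven by an interferon-responsive promoter, which PIpC switches on in blood cells and in some other tissues. Only the controls lacked it, so that each comparison with controls is also a comparison of mice with and without the recombinase. The strain and the age of the mice are not given in the labels. In what follows, pairs of values are replicate 1 and then replicate 2 of a group.

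Smc3 encodes a subunit of cohesin, the ring that holds sister chromatids together from replication until anaphase. In mitosis, Cdk1 with cyclin B starts the process and condensin compacts the chromosomes. Kinetochores tie the chromosomes to spindle microtubules, and the spindle checkpoint holds back the anaphase-promoting complex (APC/C) until every chromosome is attached. The APC/C then marks securin and cyclin B for destruction, separase cuts cohesin, and midzone kinesins prepare the cut between the daughter cells. The genes for these proteins are expressed together in G2 and M phase. Their promoters are bound by MuvB complexes, which hold B-Myb (Mybl2) or meet Foxm1 in dividing cells, at a short element called the cell cycle genes homology region, with the letters TTTGAA or TTTAAA. NF-Y binds CCAAT boxes in the same promoters.

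The promoters of the genes held these letters more often than promoters in general. RefSeq windows of build GRCm38.p6, from 250 bases before to 50 bases after each annotated start, were at hand for 40 of the 48 genes, in 43 windows. TTTGAA, on either strand, was in 33 of 43 windows (76.7%), against 12.3% of the windows of all genes tested here and 17.9% of all 32851 windows. TTTAAA was in 20.9% against 13.2% of all windows, and 1 or the other in 83.7% against 27.6%. CCAAT, on either strand, was in 79.1% against 37.4%, and 2 or more matches in 53.5% against 11.7%. In the windows of the tested genes these 2 shares were 38.3% and 14.7%. TTTGAA together with CCAAT was in 69.8% against 6.95%. Limits chosen after the positions were seen gave TTTGAA starting within 50 bases of the start in 67.4% of the windows, against 4.94% of all. They gave 2 CCAAT on the same strand with starts 31 to 33 bases apart in 16.3%, the windows of Aurka, Ccnb1, Ccnb2, Cdk1, Hmmr, Spc25 and Ube2c, against 0.794% of all. Of the windows of the tested genes, 3.2% met the first of these limits and 1.6% the second. A match is a run of letters and not a shown binding site.

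The sequences below run from 100 bases before to 30 bases after the start of the genes that the results turn on, or that show the arrangement of the motifs. Capitals mark the homology region in either form and the CCAAT boxes, which read ATTGG where they lie on the other strand. Ccnb1 and Plk1 hold the TTTAAA form, Ccnb2, Cdc20, Spc25 and Kif23 the TTTGAA form, and Mad2l1 none of the motifs in this stretch.
Ccnb1 (chr13:100786457-100786586, minus strand): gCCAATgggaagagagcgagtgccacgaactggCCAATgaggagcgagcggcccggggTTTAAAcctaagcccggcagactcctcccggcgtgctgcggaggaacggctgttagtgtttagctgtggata
Ccnb2 (chr9:70421525-70421654, minus strand): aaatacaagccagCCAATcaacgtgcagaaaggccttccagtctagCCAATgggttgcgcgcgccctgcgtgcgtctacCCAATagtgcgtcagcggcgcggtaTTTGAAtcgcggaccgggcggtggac
Cdc20 (chr4:118437314-118437443, minus strand): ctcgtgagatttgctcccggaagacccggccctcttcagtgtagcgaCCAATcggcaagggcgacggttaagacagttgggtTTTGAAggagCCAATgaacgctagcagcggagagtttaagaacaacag
Plk1 (chr7:122159335-122159464, plus strand): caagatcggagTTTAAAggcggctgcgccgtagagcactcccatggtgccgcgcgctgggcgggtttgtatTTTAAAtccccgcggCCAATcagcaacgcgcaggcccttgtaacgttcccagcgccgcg
Spc25 (chr2:69206184-69206313, minus strand): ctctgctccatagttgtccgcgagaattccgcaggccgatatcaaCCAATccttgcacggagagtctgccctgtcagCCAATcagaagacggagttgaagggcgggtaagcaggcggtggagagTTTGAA
Kif23 (chr9:61946770-61946899, minus strand): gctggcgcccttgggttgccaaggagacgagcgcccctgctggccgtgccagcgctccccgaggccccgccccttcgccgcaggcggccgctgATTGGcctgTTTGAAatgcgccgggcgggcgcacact
Mad2l1 (chr6:66535121-66535250, plus strand): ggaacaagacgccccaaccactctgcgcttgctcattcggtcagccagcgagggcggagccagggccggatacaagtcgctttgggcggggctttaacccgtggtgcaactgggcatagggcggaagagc
Ccnb2 shows 3 CCAAT boxes in a row before a TTTGAA that lies just after the start. Kif23, the member whose level passed the test below, has its TTTGAA at the start and a single reversed CCAAT beside it.

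**Figure D1:**
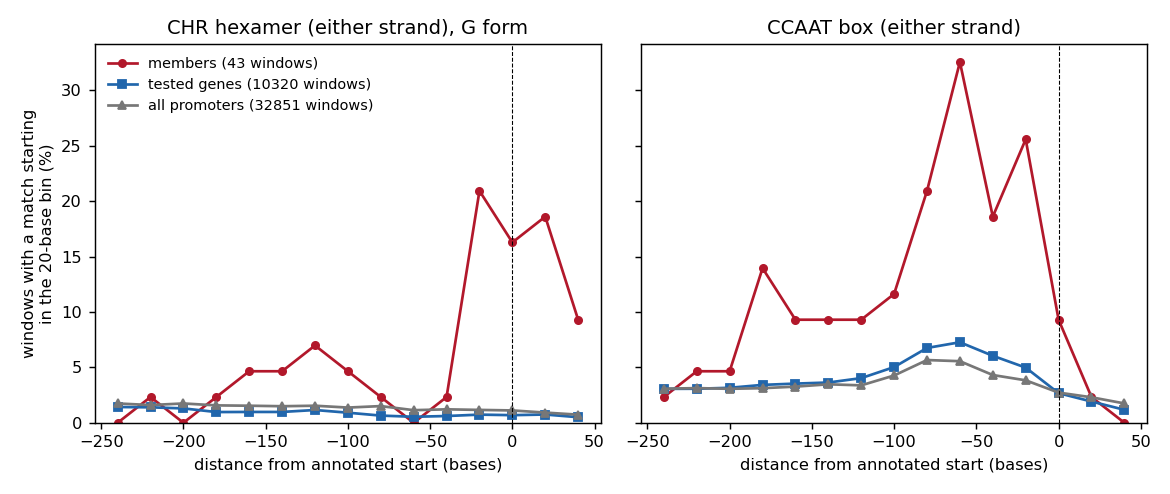
Share of promoter windows (%, y axis) in which a TTTGAA hexamer (left, the cell cycle genes homology region) or a CCAAT box (right) starts, in 20-base bins by distance from the annotated start (bases, x axis), for the windows of the mitotic genes (red circles), of all tested genes (blue squares) and of all promoters in the RefSeq table (grey triangles). The mitotic genes stand above both other lines in each bin from -50 to 49 and in most earlier ones for TTTGAA, with the highest at -30 to -11 (20.9% of windows), and in each bin from -230 to 9 for CCAAT, with the highest at -70 to -51 (32.6%).

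All 48 genes passed the filter of a mean of at least 1 FPKM, and the lowest value of any of them in any library was 5.82 FPKM. Mean levels over the 8 libraries ran from 7.67 FPKM for Cdc25c to 521 FPKM for Mki67, the antigen by which dividing cells are stained, with a median of 54.4 FPKM, against 12.9 FPKM for all 10854 genes tested. The highest levels after Mki67 were those of Top2a, the topoisomerase that untangles sister DNA (321 FPKM), Ube2c, a ubiquitin-conjugating enzyme of the APC/C (306 FPKM), and Smc4 of condensin (268 FPKM). The levels varied little. The ratio of the highest to the lowest library had a median of 1.43 and ran from 1.18 for Kif4 to 2.28 for Pttg1. It was under 1.5 for 29 of the 48 genes. Of the 6896 tested genes in the same range of mean levels, 28.8% were under 1.5, and their median ratio was 1.73. Those genes share the range and were not matched to the 48 gene by gene for level.

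Genes at 1 FPKM or more numbered 10490 to 10843 per library, and spike-in RNAs made up 1.73% to 2.83% of the summed FPKM. The depth in reads is unknown, because the tables hold no counts. Replicates correlated at r = 0.975 to 0.981 across genes in controls, Smc3 del/+ and Flt3-ITD and at 0.932 in the combined group. Smc3 itself was at 119 and 112 FPKM in controls and at 135 and 133 FPKM in the libraries labelled Smc3 del/+. Flt3-ITD mice had 94.7 and 89.9 FPKM, and mice of the combined group 103 and 136 FPKM. The level of Smc3 thus does not show the deletion, and the direction of every comparison of Smc3 groups rests on the labels. Flt3 was at 3.64 to 14.3 FPKM and Kit at 37.4 to 60.1 FPKM. Xist, expressed from the inactive X chromosome of females, was at 500 to 657 FPKM in controls and the combined group and below 1 FPKM in the libraries labelled Smc3 del/+ and Flt3-ITD. Sex and genotype cannot be told apart in comparisons across that line, the interaction among them. The averaged effects hold 2 libraries of each sex in each arm. Mx1-cre is not balanced in them, because the controls, which lack it, always lie in the reference arm.

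In the libraries labelled Smc3 del/+, most mitotic genes were slightly higher than in controls, and none passed the test. The log2 fold change was positive for 44 of 48 genes, with a median of 0.18, against 0.00 for all genes tested. Both libraries labelled Smc3 del/+ lay above both controls for 36 of 48 genes (75.0%), where 24.2% of all tested genes did so. The opposite held for 1 gene, Cdc25b, a phosphatase that activates Cdk1, where 23.2% of all genes did so. No gene of the 48 had an adjusted p under 0.05 in limma, nor an unadjusted p under 0.05. Of all tested genes, 0.00921% were called, and 4.55% had an unadjusted p under 0.05. The 36 genes whose libraries did not overlap included all 5 checkpoint genes and 3 of the 4 subunits of the passenger complex, all but Incenp. With 1 control or 1 Smc3 del/+ library left out, 43 to 46 of the 48 values stayed positive, with a single mouse then standing for its group. Libraries of the other groups do not enter these values. The controls and the libraries labelled Smc3 del/+ also differ by Xist and by Mx1-cre, which cannot be told apart from the deletion. In the table that the authors normalized further, in which the median of all genes was -0.38, the same comparison gave the mitotic genes a median of -0.17, so that they were lower than in controls on that scale and 0.21 above the median of all genes.

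On the Flt3-ITD background the values lay on both sides of 0. The combined group against Flt3-ITD had a median log2 fold change of -0.00, with 21 of 48 genes positive. No gene passed by adjusted p in limma (background 0.286%), nor by unadjusted p under 0.05 (background 11%). For no member did both combined libraries lie above both Flt3-ITD libraries, as 17.1% of all genes did. Both lay below for Ccnb2, Cdca8, Incenp, Kif4, Ncapd2 and Spc24, 6 of 48, against 16.8% of all genes. The test of the difference between the effects of the deletion, the interaction, called none of the 48 genes in limma (0.0369% of all genes were called), and 1 of 48, Cdca8, had an unadjusted p under 0.05, against 9.3% of all genes. Its estimate was negative for 42 genes, with a median of -0.20. That median was -0.03 in the table normalized by the authors, where all genes had a median of 0.27. Averaged over both Flt3 backgrounds, the Smc3 deletion gave a median of 0.09, with 38 genes positive and none called in limma (0% of all genes), and no member had an unadjusted p under 0.05 (4.84% of all genes). No member's 4 deleted libraries lay wholly above or below the other 4, as 0.912% and 0.783% of all genes did. In the table normalized by the authors that averaged median was -0.17, against -0.24 for all genes.

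Flt3-ITD, which changed the level of many other genes, left all but 1 of the mitotic genes without a call. Averaged over both Smc3 states, 23.8% of all tested genes were called by limma, and 1 of the 48 mitotic genes, Kif23, which rose. At an unadjusted p under 0.05 there were 4 of 48, with Ccna2, Ccnb1 and Cenpa lower, against 38% of all genes. The median was -0.03, with 20 genes positive. All 4 Flt3-ITD libraries lay above the other 4 for Kif23 alone (12.1% of all genes) and below them for Ccnb1 and Ncapd2 (15.1% of all genes). In Flt3-ITD against control, 18% of all genes and none of the 48 were called by limma, and 1 of the 48 had an unadjusted p under 0.05, against 33.9% of all genes. The median was 0.07. Libraries stood wholly above controls for Anln, Cdca8, Cenpf, Kif11, Kif23, Prc1, Spc25 and Tpx2, 8 of 48 against 34.3% of all genes. They stood wholly below for Ccnb1, Ncapd2, Pttg1 and Smc2, 4 of 48 against 35.2%. In the combined group against control, 11.8% of all genes and none of the 48 were called. An unadjusted p under 0.05 was found for 1 of the 48 and 28.6% of all genes, and the median was 0.06. Cenpf, Kif23, Nusap1 and Spc25 stood wholly above (25.8% of all genes), and Ccna2, Ccnb1, Ccnb2, Cenpa, Kif22, Kif4, Ncapd2 and Spc24 wholly below (26.8%). These 3 comparisons share libraries.

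The table normalized by the authors gave another picture on its own scale. There 14 of the mitotic genes were called lower in Flt3-ITD against control, 39 in the combined group against control and 38 in the averaged effect of Flt3-ITD, and 43.1%, 53.4% and 44.1% of all tested genes were called lower. On that scale all genes moved with them: the medians of all genes were -0.58, -0.67 and -0.44, beside -0.43, -0.65 and -0.45 for the mitotic genes. The labels and files do not state the steps behind that table. Spike-in RNAs summed to 9509 to 18628 per library in the first table and to 13573 to 14697 in the one normalized by the authors. Their totals were thus closer to equal there. Whether that table was scaled to the spike-in RNAs was not tested.

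**Figure D2:**
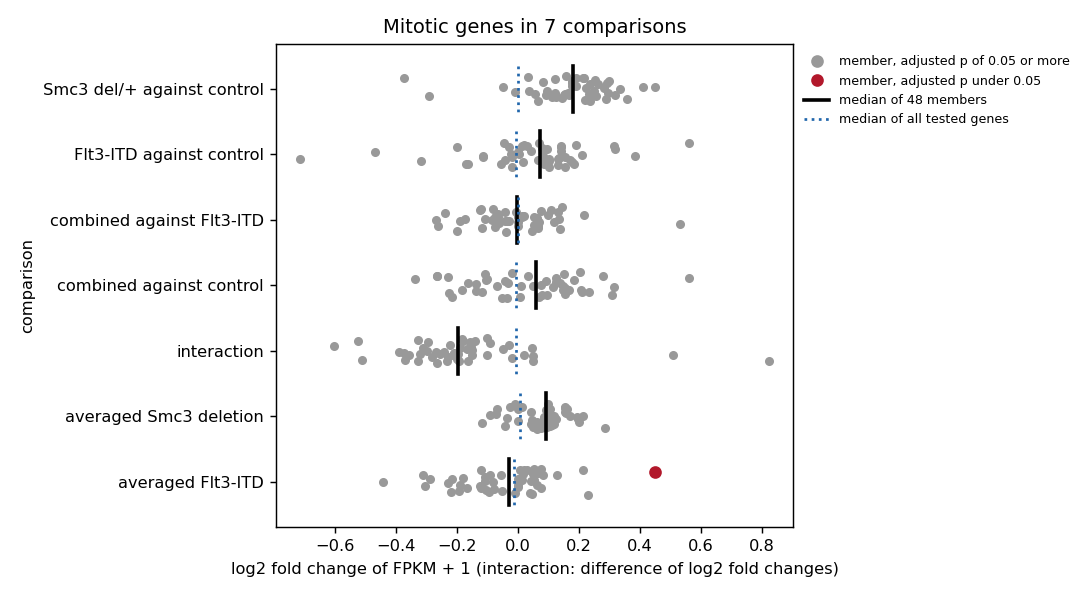
Log2 fold change of FPKM + 1 (x axis; for the interaction, the difference of 2 log2 fold changes) of each of the 48 mitotic genes (points) in 7 comparisons (y axis), with the median of the 48 (black line) and of all tested genes (dotted blue line); red marks an adjusted p under 0.05 in limma and the vertical scatter is only for display. The points for Smc3 del/+ against control lie mostly right of 0, around a median of 0.18, and the single red point is Kif23 in the averaged effect of Flt3-ITD.

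The 2 replicates of the Flt3-ITD group differed from each other in a common direction across the mitotic genes, as did those of the combined group. Flt3-ITD replicate 1 was above replicate 2 for 47 of 48 genes, with a median difference (replicate 2 minus replicate 1) of -0.28 on the log2 scale. Pttg1, the gene for securin, was the exception. Among all tested genes of the same level range, 60.0% were higher in replicate 1. In the combined group, replicate 2 was above replicate 1 for 39 genes, by a median of 0.28, and 51.2% of genes of that range were. Both exceeded the size of the median of the 48 genes in each of the 7 comparisons. Combined replicate 2 was the highest of all 8 libraries for 18 of the 48 genes and combined replicate 1 the lowest for 18. The medians of the 48 genes relative to the control mean were 0.16 and 0.23 in the libraries labelled Smc3 del/+, 0.21 and -0.07 with Flt3-ITD alone, and -0.11 and 0.25 with both.

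Erythroid marker genes moved with this split. Their median difference, replicate 2 minus replicate 1 on the log2 scale, was -0.89 with Flt3-ITD alone and 0.88 with both. Their summed level was 2055 to 2154 FPKM in controls, 1836 to 1940 with the Smc3 deletion alone, 85.9 to 191 with Flt3-ITD alone and 214 to 624 with both. Neutrophil markers summed to 79724 to 86970 FPKM in controls and 160931 to 229837 in Flt3-ITD. Their median difference between replicates was -0.45 with Flt3-ITD alone and -0.22 with both. Stem and progenitor markers had medians of 0.44 with Flt3-ITD alone and 0.09 with both, and mast cell markers 0.25 and 0.83. Apart from the erythroid one, no marker list had the signs of the mitotic split in both groups. The part of these cells in the levels of the mitotic genes was not tested. In such bulk samples, fewer cells of a type and less RNA per cell cannot be told apart.

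**Figure D3:**
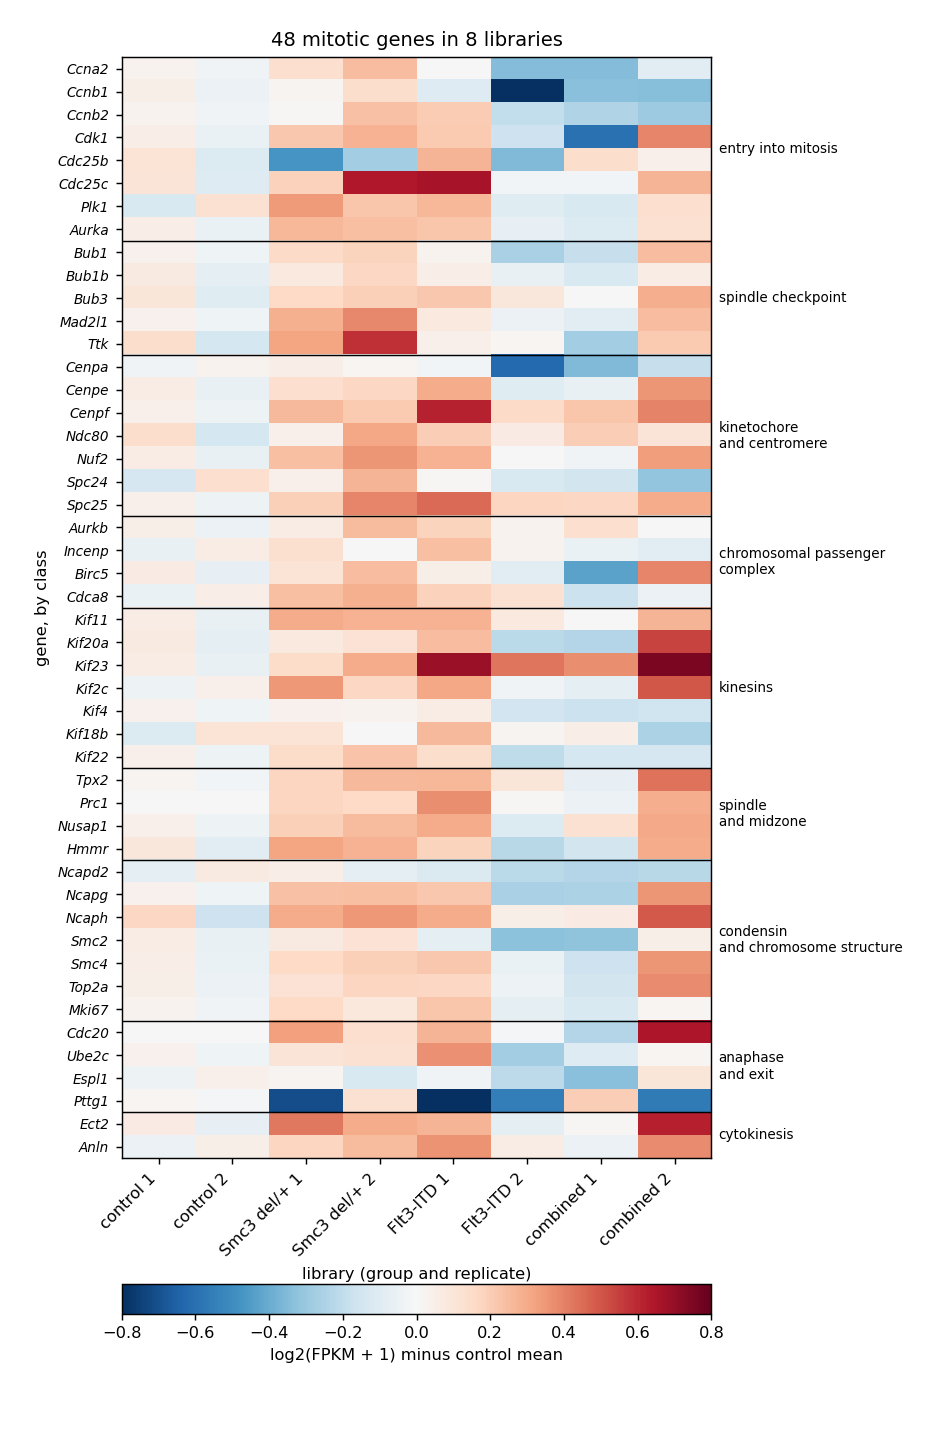
Log2(FPKM + 1) of the 48 mitotic genes minus the mean of the 2 controls (colour, red higher and blue lower, with the scale ending at 0.8 in either direction), by gene and class (rows) and library (columns). Flt3-ITD replicate 1 and combined replicate 2 are mostly red beside the paler or blue other replicate of each group, both Smc3 del/+ libraries are mostly pale red, and Kif23 is red in all 4 Flt3-ITD libraries.

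Among the kinesins, motor proteins that move along microtubules, Kif23 rose with Flt3-ITD and the other 6 were not called in any comparison. Kif23 encodes the motor of centralspindlin, which bundles midzone microtubules and sets the site of the cut between the daughter cells. It was at 45.3 and 41.7 FPKM in controls, 48.2 and 53.7 with the Smc3 deletion alone, 70.8 and 58.9 with Flt3-ITD alone, and 56.4 and 73.8 with both. Every Flt3-ITD library lay above every library without Flt3-ITD, with means of 65.0 ± 8.60 (SD, n = 4) and 47.2 ± 5.04 FPKM (SD, n = 4). The averaged log2 fold change was 0.45 (SE 0.121; limma, adjusted p = 0.029). Taken singly, Flt3-ITD and the combined group were each 0.56 above control on the log2 scale and were not called (adjusted p = 0.0581 and 0.0745 in limma).

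The call for Kif23 was lost when single libraries were left out. With any 1 of 6 left out, the adjusted p passed 0.05: it was 0.0823 and 0.0997 without control 1 or 2, 0.0751 and 0.052 without Smc3 del/+ 1 or 2, and 0.0832 and 0.0626 without Flt3-ITD 1 or 2. Without combined 1 or 2 it was 0.0131 and 0.0247. The log2 fold change stayed between 0.37 and 0.55 in these 8 fits. In the table normalized by the authors it was 0.02 (adjusted p = 0.916), which lies 0.45 above the median of all genes there.

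Kif11, the motor that pushes the spindle poles apart, was at 123 and 113 FPKM in controls, 145 and 142 with the Smc3 deletion alone, 143 and 124 with Flt3-ITD alone, and 118 and 142 with both. The libraries labelled Smc3 del/+ did not overlap the controls, and the log2 difference of 0.29 (SE 0.143) was not called (limma, adjusted p = 1). Means of the 7 kinesins ran from 18.4 FPKM for Kif18b, a regulator of microtubule length, to 131 FPKM for Kif11. Kif4, a chromosome-bound motor, had the lowest ratio of highest to lowest library of the 48 genes, at 24.7 to 29.1 FPKM. Kif20a, which carries passenger complex to the midzone, was at 60.3 and 54.3 FPKM in controls and at 48.5 and 83.8 in the combined group, so that these replicates differed by more than any of the group means. The median of the class was 0.19 in Smc3 del/+ against control, with 7 of 7 positive, and 0.01 in the averaged effect of Flt3-ITD.

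Racgap1 encodes the second subunit of centralspindlin and was not among the 48. It was at 51.6 and 54.3 FPKM in controls, 62.0 and 60.6 with the Smc3 deletion alone, 88.0 and 73.0 with Flt3-ITD alone, and 79.7 and 66.2 with both. As for Kif23, all 4 Flt3-ITD libraries lay above the other 4, which held for 12.1% of all genes. The averaged log2 fold change was 0.42 (SE 0.117; limma, adjusted p = 0.0342), with 0.59 (adjusted p = 0.0329) in Flt3-ITD against control. Over the alternative settings tried, the results for Racgap1 were the same in 14, weaker in 16 and reversed in 1. Cep55, a protein of the midbody that acts after centralspindlin, was at 18.6 and 18.9 FPKM in controls, 20.4 and 24.5 with the Smc3 deletion alone, 37.5 and 27.0 with Flt3-ITD alone, and 25.9 and 36.3 with both, a rise of 0.59 (SE 0.154; adjusted p = 0.0262). These 2 genes were added after their values were seen. They were the only ones called higher of 23 other spindle and cytokinesis genes. Haus4 and Haus1, subunits of the augmin complex that branches spindle microtubules, were called lower. Of all 10854 genes tested, 1187 were called higher and 1394 lower in the averaged effect, 23.8% in all. The 2 called higher and 2 called lower of 23 are below those shares. The averaged call for Racgap1 was lost without any 1 library other than combined 2, with an adjusted p of 0.0568 (without Smc3 del/+ 1) to 0.113 (without control 1). That for Cep55 was lost without control 1, control 2, Smc3 del/+ 1 or Flt3-ITD 1, at 0.0846, 0.0845, 0.0706 and 0.0713. That for Haus1 was lost without control 1, control 2, Smc3 del/+ 2 or Flt3-ITD 1, at 0.0621 to 0.0715, and that for Haus4 without control 1 or 2, at 0.0523 and 0.0561. In the table normalized by the authors the averaged values of Racgap1 and Cep55 were -0.02 and 0.15, which lie 0.42 and 0.58 above the median of all genes there, -0.44.

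**Figure D4:**
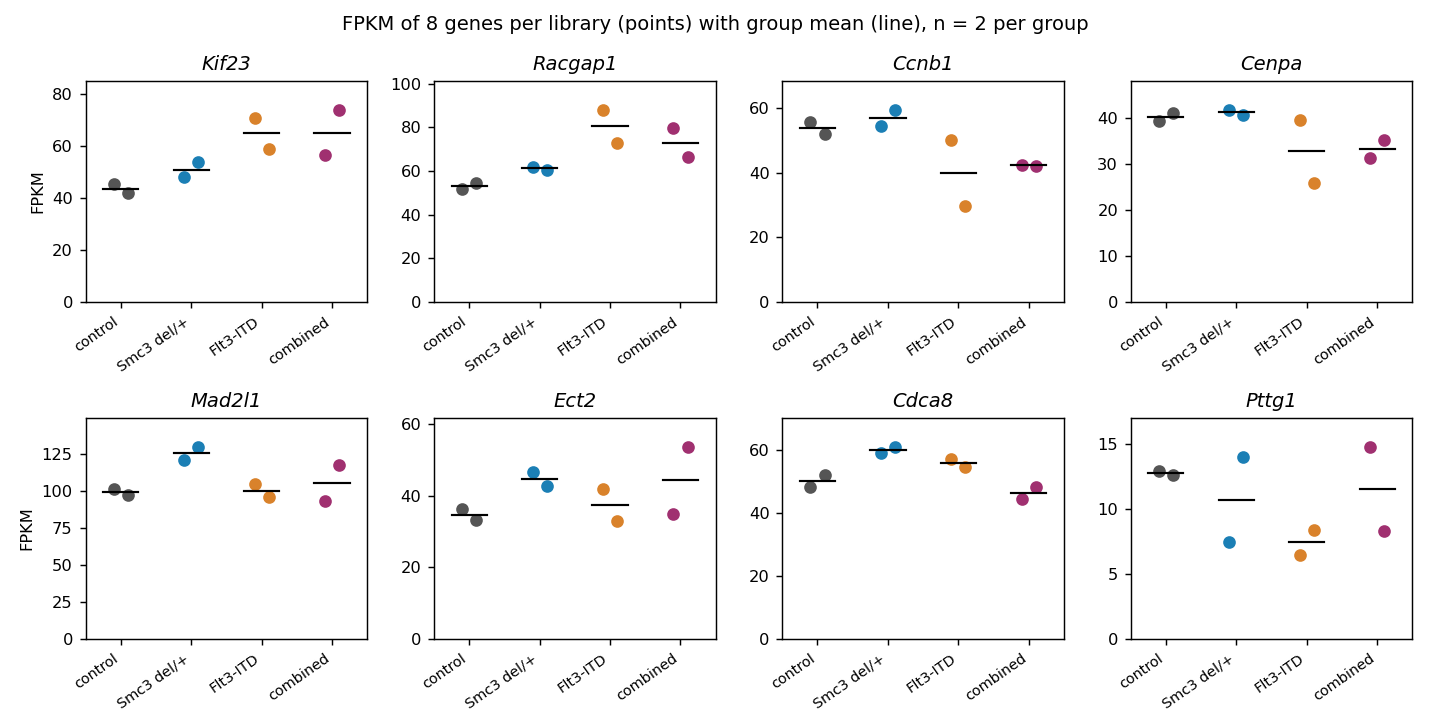
FPKM (y axis, from 0) of Kif23, of Racgap1 (the other centralspindlin subunit, not among the 48), and of 6 more mitotic genes in the 4 groups (x axis); points are single libraries, 2 per group, and lines are group means. Kif23 and Racgap1 are higher in every Flt3-ITD and combined library than in any other, Ccnb1 is lower in them, and the points of Pttg1 are scattered within the groups.

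The other midzone and cytokinesis genes did not pass the test. Ect2, the exchange factor that centralspindlin brings to the midzone to start the contractile ring, was at 36.2 and 33.1 FPKM in controls, 46.6 and 42.8 with the Smc3 deletion alone, 42.0 and 32.9 with Flt3-ITD alone, and 34.9 and 53.7 with both. Its averaged value for the Smc3 deletion was 0.29 (SE 0.148; limma, adjusted p = 0.901), the highest of the 48 genes. Anln, a scaffold of the contractile ring, was at 34.4 and 36.8 FPKM in controls, 40.3 and 42.5 with the Smc3 deletion alone, 45.9 and 37.1 with Flt3-ITD alone, and 34.4 and 46.5 with both. Both genes were higher in both libraries labelled Smc3 del/+ than in controls, and both had widely spaced replicates in the combined group.

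The spindle and midzone class also held Tpx2, an activator of Aurora A, Prc1, which crosslinks midzone microtubules, Nusap1, which stabilizes them, and Hmmr, a spindle pole protein. Nusap1 was at 90.7 and 85.4 FPKM in controls, 100.5 and 105 with the Smc3 deletion alone, 108 and 81.5 with Flt3-ITD alone, and 95.9 and 109 with both (averaged Smc3 deletion 0.17, SE 0.111, adjusted p = 0.901 in limma). Hmmr was at 65.9 and 57.9 FPKM in controls, 77.3 and 75.1 with the Smc3 deletion alone, 70.0 and 52.9 with Flt3-ITD alone, and 55.8 and 76.3 with both (Smc3 del/+ against control 0.30, SE 0.195, adjusted p = 1 in limma). All 4 genes of the class were above both controls in both libraries labelled Smc3 del/+, with a class median of 0.22. All 4 were also lower in the second Flt3-ITD replicate, and higher in the second combined one.

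Among the genes for entry into mitosis, no call was made, and Ccnb1 had the smallest p in the averaged effect of Flt3-ITD. Ccnb1, cyclin B1, was at 55.6 and 51.8 FPKM in controls, 54.4 and 59.4 with the Smc3 deletion alone, 49.9 and 29.6 with Flt3-ITD alone, and 42.3 and 42.1 with both. Every Flt3-ITD library lay below every other, with an averaged log2 difference of -0.44 (SE 0.150; limma, adjusted p = 0.0629). The Flt3-ITD replicates lay apart: replicate 2, at 29.6 FPKM, was the lowest of all 8 libraries. Replicate 1, at 49.9 FPKM, lay just below control replicate 2, at 51.8 FPKM. Ccna2, cyclin A2, was at 198 and 190 FPKM in controls, 213 and 230 with the Smc3 deletion alone, 195 and 152 with Flt3-ITD alone, and 152 and 183 with both. Its groups overlapped, and the averaged difference of -0.29 (SE 0.119) had an adjusted p of 0.110. Ccnb2, cyclin B2, was at 57.8 and 55.7 FPKM in controls, 57.2 and 67.0 with the Smc3 deletion alone, 65.5 and 49.3 with Flt3-ITD alone, and 47.9 and 46.2 with both. Its first Flt3-ITD replicate lay above both controls, and the other 3 libraries with Flt3-ITD lay below every library without it. In all 8 libraries the order of levels was Ccna2, Ccnb2, Ccnb1 and then Cdk1, the kinase that these cyclins activate. Ccna2 was 2.97 to 3.96 times Ccnb2 and Ccnb1 was 1.11 to 2.26 times Cdk1.

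The other entry genes were not called. Cdk1 was at 30 and 27.8 FPKM in controls and at 18.7 and 38.1 FPKM in the combined group, the lowest and the highest value of all libraries in 1 group. Plk1 and Aurka, kinases that ready the centrosomes and the spindle, were above both controls in both libraries labelled Smc3 del/+, Plk1 at 80.3 and 73.7 FPKM against 57.9 and 68.8. Cdc25b, whose product activates Cdk1 early, went the other way, at 6.48 and 7.54 against 10.2 and 8.61 FPKM. It was the second lowest of the 48 genes in mean level, after Cdc25c, and the difference of -0.37 was not called. The class median was 0.22 in Smc3 del/+ against control, with 7 of 8 positive, and -0.13 in the averaged effect of Flt3-ITD, with 2 of 8 positive.

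The spindle checkpoint genes kept the same order in all 8 libraries: Mad2l1, Bub3, Bub1b, Bub1 and Ttk, from highest to lowest. Mad2l1 encodes Mad2, which binds and holds Cdc20, the APC/C activator. It was at 101 and 96.9 FPKM in controls, 121 and 130 with the Smc3 deletion alone, 105 and 95.7 with Flt3-ITD alone, and 93.4 and 118 with both. Ttk, the kinase Mps1 that starts checkpoint signalling, was at 27.0 and 22.0 FPKM in controls, 30.6 and 37.0 with the Smc3 deletion alone, 25.1 and 24.7 with Flt3-ITD alone, and 19.9 and 28.3 with both. Both had their highest values in the libraries labelled Smc3 del/+, and neither difference from control was called: 0.34 (SE 0.145) for Mad2l1 and 0.45 (SE 0.199) for Ttk, with adjusted p = 1 for each in limma. Ttk had the highest log2 fold change of the 48 genes in that comparison. All 5 checkpoint genes were positive in the averaged effect of the Smc3 deletion, with a class median of 0.16, and 1 of 5 was positive in that of Flt3-ITD.

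In the kinetochore, Cenpa and Cenpf had the smallest p-values, in opposite directions. Cenpa encodes the histone H3 variant that marks the centromere. It was at 39.3 and 40.9 FPKM in controls, 41.7 and 40.5 with the Smc3 deletion alone, 39.6 and 25.7 with Flt3-ITD alone, and 31.2 and 35.2 with both, with an averaged Flt3-ITD difference of -0.31 (SE 0.133; limma, adjusted p = 0.124). Flt3-ITD replicate 1 lay within the range of the controls. Cenpf, a large protein of the outer kinetochore, was at 36.4 and 34.4 FPKM in controls, 42.6 and 41.1 with the Smc3 deletion alone, 54.9 and 39.4 with Flt3-ITD alone, and 41.5 and 46.8 with both. All 6 libraries from mice with Mx1-cre lay above both controls, and the difference of Flt3-ITD from control was 0.38 (SE 0.172; adjusted p = 0.161).

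The Ndc80 complex, the main microtubule grip of the kinetochore, has 4 subunits that work in equal number, and their messages stood at different levels. Nuf2 was above Spc25, Spc25 above Ndc80 and Ndc80 above Spc24 in 7 of 8 libraries. Nuf2 was at 66.5 to 88.8 FPKM and Spc24 at 18.2 to 27.9 FPKM. Spc24 and Ndc80 exchanged places in control replicate 2, at 25.2 and 25.1 FPKM, a difference within the spread between replicates. Spc25 was above both controls (53.6 and 50.7 FPKM) in each of the 6 other libraries, from 58.7 to 71.9 FPKM, and Spc24 was below both controls only in combined replicates 1 and 2, at 20.7 and 18.2 FPKM. In the combined group Spc25 thus lay above the controls and Spc24 below them. Cenpe, a kinesin of the kinetochore, ran from 53.1 to 72.8 FPKM.

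The chromosomal passenger complex corrects faulty attachments and later moves to the midzone. Its kinase Aurkb had the lowest level of the 4 subunits, with a mean of 38.0 FPKM, below Cdca8 (borealin) in all 8 libraries. Incenp, the scaffold, and Birc5 (survivin) were the 2 highest and exchanged places, with Birc5 higher in 4 of 8 libraries. Cdca8 was at 48.1 and 51.9 FPKM in controls, 59.1 and 61.0 with the Smc3 deletion alone, 57.0 and 54.6 with Flt3-ITD alone, and 44.3 and 48.3 with both. It lay above the controls in Smc3 del/+, by 0.26, and below Flt3-ITD in the combined group, by the same size (-0.26). The interaction of -0.53 (SE 0.170) had an unadjusted p of 0.0159 and did not pass the correction (limma, adjusted p = 0.418). In that contrast the 2 groups with Xist stand against the 2 without, so that sex and interaction cannot be told apart. Incenp was at 95.5 and 104 FPKM in controls, 109 and 99.97 with the Smc3 deletion alone, 118 and 102 with Flt3-ITD alone, and 96.2 and 93.9 with both (combined against Flt3-ITD -0.20, SE 0.130, adjusted p = 0.559 in limma). Birc5 spread most, from 77.8 to 138 FPKM, and both values are from the combined group.

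No condensin gene was called, and the DNA-binding ATPase Smc4 stood above its partner Smc2 in all 8 libraries. Smc2 and Smc4 are relatives of Smc3 that form the arms of condensin. Smc4 was 2.36 to 2.93 times Smc2 in the 8 libraries. The order Smc4, Smc2, Ncapd2, Ncapg, Ncaph held in 6 of 8, and Ncapg and Ncaph, the last 2, exchanged places in the others. Ncapd2, a subunit of condensin I, was at 83.0 and 92.1 FPKM in controls, 90.9 and 82.9 with the Smc3 deletion alone, 80.7 and 75.2 with Flt3-ITD alone, and 74.2 and 75.0 with both. All 4 Flt3-ITD libraries lay below the other 4, with an averaged difference of -0.19 (SE 0.086; limma, adjusted p = 0.141). Smc2 was at 110 and 102 FPKM in controls, 111 and 115 with the Smc3 deletion alone, 101 and 84.2 with Flt3-ITD alone, and 84.5 and 109 with both (-0.22, SE 0.110, adjusted p = 0.189). Ncaph, the subunit that closes the condensin ring, was above both controls in both libraries labelled Smc3 del/+, at 51.6 and 53.5 against 47.0 and 37.3 FPKM. Top2a (273 to 392 FPKM) and Mki67 (466 to 591 FPKM) were the most abundant messages of the 48 and were called in no comparison. The class median was 0.15 in Smc3 del/+ against control, with 6 of 7 positive, and -0.05 in the averaged effect of Flt3-ITD.

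Of the genes for anaphase and exit, Pttg1 was the least steady of the 48. It encodes securin, which holds separase (Espl1) inactive until the APC/C removes it. Pttg1 was at 12.9 and 12.6 FPKM in controls, 7.42 and 14.0 with the Smc3 deletion alone, 6.48 and 8.37 with Flt3-ITD alone, and 14.8 and 8.28 with both. Flt3-ITD lay below the controls (-0.72, SE 0.334; limma, adjusted p = 0.176), and the other groups held both a low and a high library. Espl1 was at 8.64 to 12.0 FPKM and was above Pttg1 in 4 of 8 libraries. Cdc20 was at 64.0 and 64.1 FPKM in controls, 80.8 and 70.3 with the Smc3 deletion alone, 77.6 and 63.4 with Flt3-ITD alone, and 54.2 and 101 with both (Smc3 del/+ against control 0.23, SE 0.267, adjusted p = 1). The controls all but coincided, and the replicates of the combined group lay far apart. Ube2c was 2.99 to 5.12 times Cdc20.

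Genes of the preceding step, S phase, were lower with Flt3-ITD. Of 24 S phase genes on a separate list, 16 were called lower in the averaged effect of Flt3-ITD and none higher (23.8% of all genes were called), with a median of -0.49, beside the median of -0.03 and 1 call of 48 for the mitotic genes; the difference between the lists was not tested. The S phase genes relative to the control mean were at -0.54 and -0.54 with Flt3-ITD alone and at -0.69 and -0.33 with both, below the mitotic genes in each of the 4. In both libraries labelled Smc3 del/+ they were at -0.07 and 0.01, and none was called. Ccne1, cyclin E1, which starts replication, was at 38.8 and 43.6 FPKM in controls and at 11.1 and 11.8 in Flt3-ITD. The S phase count was 11 to 22 when any 1 library was left out. The erythroid, megakaryocyte and B cell markers were lower in the same comparison, with 12 of 12, 6 of 6 and 7 of 8 called, and their part was not tested. In the 2 Flt3-ITD replicates the S phase genes did not share the split of the mitotic genes: 13 of 24 were higher in replicate 1, with a median difference of -0.04. In the combined group 22 of 24 were higher in replicate 2, with a median difference of 0.47.

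**Figure D5:**
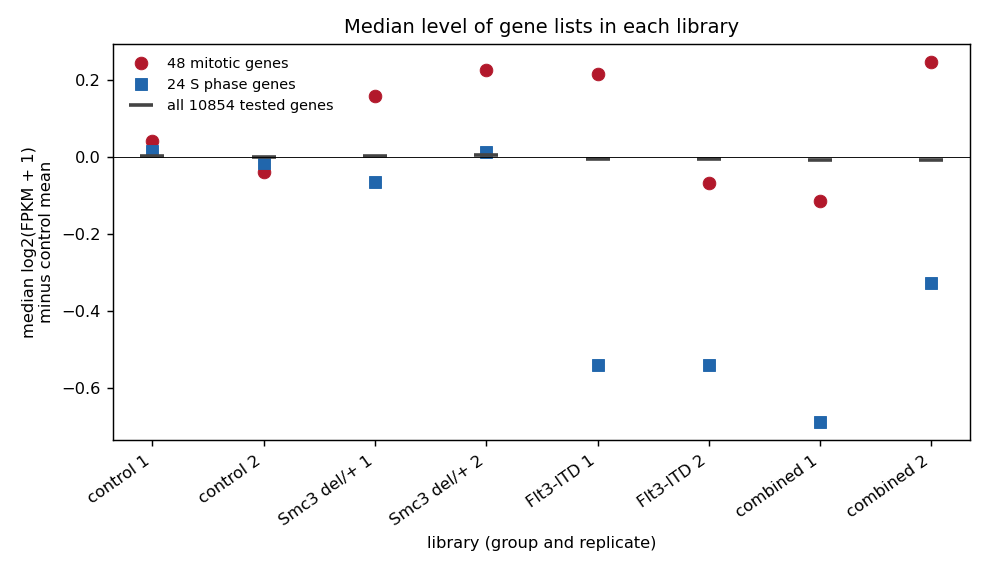
Median log2(FPKM + 1) minus the control mean (y axis) in each library (x axis, group and replicate) for the 48 mitotic genes (red circles), 24 S phase genes (blue squares) and all tested genes (dashes). The S phase genes lie at -0.33 to -0.69 in the 4 Flt3-ITD libraries, where the mitotic genes lie at -0.11 to 0.25.

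Other genes of the mitotic pathway had calls in the averaged effect of Flt3-ITD, where 23.8% of all genes were called, and none in Smc3 del/+ against control or in the averaged effect of the deletion. Of 31 other kinetochore genes tested, 2 were lower: Zwint, an outer kinetochore protein, and Pmf1, a subunit of the Mis12 complex. Zwint fell by 0.56 (SE 0.116; limma, adjusted p = 0.0112), from 19.7 to 22.4 FPKM without Flt3-ITD to 12.4 to 16.1 with it. Pmf1 fell by 0.43 (adjusted p = 0.0258). Of 15 APC/C subunits and regulators, Anapc1 and Anapc5 were lower, at -0.36 and -0.28 on the log2 scale. Of 3 further condensin genes, Ncapg2 of condensin II was lower (-0.38, adjusted p = 0.0413). Of 7 genes that protect or establish sister cohesion, Wapal, which releases cohesin from chromatin, was lower, at 58.0 to 66.2 FPKM with Flt3-ITD and 80.0 to 88.3 FPKM without. Apart from the list of 3 condensin genes, each of these counts was below the 23.8% of all genes called. In the combined group against control, Cenpm of the inner kinetochore was also called lower (-0.76; limma, adjusted p = 0.0441). The averaged calls of Zwint and Wapal held whichever library was left out. Those of Pmf1 and Anapc1 were lost without either control, either Smc3 del/+ library or Flt3-ITD 2, with adjusted p of up to 0.084 and 0.0739. Those of Anapc5 and Ncapg2 were lost without most single libraries, with adjusted p of up to 0.115 and 0.125 (both without Flt3-ITD 2), and that of Cenpm without any 1 library outside the combined group (up to 0.269, without control 1). Sgol2, which shields centromeric cohesin, had the smallest p of the cohesion genes in Smc3 del/+ against control (0.47, SE 0.150) and was not called (adjusted p = 0.868).

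Among regulators of such promoters, B-Myb was lower with Flt3-ITD. Of 16 transcriptional regulators, E2f4 and Mybl2 were called lower in Flt3-ITD against control, in the combined group against control and in the average. The shares of all genes called in these comparisons were 18%, 11.8% and 23.8%, so that 2 of 16 is near or below the background. Mybl2 was at 29.9 and 32.3 FPKM in controls, 26.8 and 27.3 with the Smc3 deletion alone, 19.1 and 19.9 with Flt3-ITD alone, and 15.9 and 11.3 with both, an averaged fall of 0.80 (SE 0.128; limma, adjusted p = 0.00438). E2f4, a repressive E2F of resting cells, fell by 1.01 (SE 0.122; adjusted p = 0.00166), from 61.9 to 87.3 FPKM without Flt3-ITD to 29.4 to 40.2 FPKM with it. The averaged calls of both held whichever library was left out. Foxm1, which acts on the same promoters in G2, was at 27.0 and 27.8 FPKM in controls, 33.8 and 30.8 with the Smc3 deletion alone, 40.6 and 35.5 with Flt3-ITD alone, and 38.5 and 21.0 with both, and was not called. The fall of Mybl2 was seen in all 4 Flt3-ITD libraries, in which Kif23 rose and the median of the mitotic genes stayed between -0.11 and 0.25. In combined replicate 2, which was above combined replicate 1 for 39 of the 48 mitotic genes, Foxm1 and Mybl2 were at their lowest of all 8 libraries. The part of these regulators in the levels of the mitotic genes was not tested.

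Markers of the labelled cell type were set beside those of other cells, which does not measure how pure the samples were. The 6 stem and progenitor markers summed to 3109 to 3111 FPKM in controls, 3338 to 3532 with the Smc3 deletion alone, 3807 to 4550 with Flt3-ITD alone and 3630 to 3801 with both. Of that sum, 85.0% to 90.4% was Mpo, the myeloperoxidase of granulocyte progenitors. Gene by gene, 1 of the 6 had a positive log2 fold change in Smc3 del/+ against control (median -0.18, none called). In the averaged effect of Flt3-ITD 2 of 6 were positive (median -0.18), with Cd34 called higher and Gata2 lower. Megakaryocyte markers were lower with the Smc3 label as well, at 65.4 to 73.3 FPKM against 188 to 194 FPKM in controls, with none of 6 called. B cell markers were at 32.9 to 46.8 against 77.3 to 203 FPKM, and none of 8 was called. Neutrophil markers were at 104890 to 108983 FPKM in the libraries labelled Smc3 del/+ and at 79724 to 86970 FPKM in controls. Their sum was above that of the stem and progenitor markers in every library. The part of these cells in the higher values of the mitotic genes in the libraries labelled Smc3 del/+ was not tested. No T cell marker reached a mean of 1 FPKM.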

How the data were processed

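Messenger RNA of c-Kit-enriched bone marrow cells was measured in 8 libraries, 2 individual mice in each of 4 groups taken from the labels. The authors deposited FPKM values in 2 tables, and the submitters' processing notes name the mm9 build, Cufflinks 2.0.0 and TopHat, with no roles. Strand use, the annotation and the normalization of the second table are not stated in the labels or files. The first gave the main results and the second an alternative. Of 23293 mouse genes, the 10854 with a mean of at least 1 FPKM were tested as log2(FPKM + 1), a scale that understates changes of low genes, with limma 3.58.1 in R 4.3.3 (variance trend, Benjamini-Hochberg adjustment over all genes tested, threshold 0.05). Pairwise comparisons and the interaction came from 1 fit of 4 group means (4 residual degrees of freedom), and averaged effects from an additive model (5). The fit was tested on simulated data. Precision is limited by 2 mice a group and an unknown depth.

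The 48 genes, the other gene lists and the marker lists were chosen with earlier results of these data known. Per-library values are given for members called in any comparison and for the 2 members of each class with the smallest p, with other members by range or as examples. Other lists are given by their counts and up to 2 genes of smallest p, and Racgap1, Cep55 and Foxm1 were added after their values were seen. Replicate numbers were not treated as pairs of mice in the main fits. The deviations of same-numbered libraries correlated at -0.113 to 0.0229 over the 6 pairs of groups. These values show no shared replicate effect, and they cannot tell whether the mice were matched in some way. Promoters came from a RefSeq table of build GRCm38.p6, matched by symbol, and no coordinates of the deposited data were used. The alternatives tried were the second table, a pseudocount of 0.1, no filter, a filter of 5 FPKM, median-ratio scaling, a replicate block, no variance trend, fits on the compared groups alone, and leaving out each library.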

Additional observations from a re-analysis of the deposited data

How the results depend on the processing

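The table normalized by the authors changed the most. There 14, 39 and 38 of the 48 genes were called, all lower, in Flt3-ITD against control, the combined group against control and averaged Flt3-ITD. The medians of the 48 genes were -0.17, -0.43, -0.19, -0.65, -0.17 and -0.45 in Smc3 del/+ against control, Flt3-ITD against control, combined against Flt3-ITD, combined against control, averaged Smc3 deletion and averaged Flt3-ITD, and the medians of all genes shifted there too. Racgap1 was at -0.017 there, and 0.42 above the median of all genes. A fit on Flt3-ITD and control libraries alone called 2 genes, Kif23 higher and Pttg1 lower. In the main fits, 18% of all genes were called in that comparison and 11.8% in combined against control. In the table normalized by the authors, 43.1%, 53.4% and 44.1% of all genes were called lower in the comparisons with 14, 39 and 38 calls. The other alternative calls in this paragraph are given without the share of all genes called in the same alternative. Those calls are therefore not weighed against background here. When 1 library was left out, the calls ranged from 0 to 1 in Flt3-ITD against control, 0 to 3 in combined against Flt3-ITD, 0 to 5 in combined against control and 0 to 2 in averaged Flt3-ITD, and the median in combined against control from -0.11 to 0.25. The 5 calls, Birc5, Cdc20, Ect2, Kif23 and Tpx2, all higher, came without combined replicate 1. Without combined replicate 2, 2 genes were called lower there, Birc5 and Cdk1, so that Birc5 changed direction with the library that stood for the group, which is then assumed to vary like the others. The call counts of S phase genes in the pairwise comparisons also moved (Flt3-ITD against control 12, and 1 to 20 with 1 library left out). The replicate block, though no pairing of the mice by number is known, left 1 member called in averaged Flt3-ITD (Kif23; limma, adjusted p = 0.0446). The depth in reads is unknown, so that counting error could not be told apart from the spread between mice.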
